A study of Mus musculus with 15 samples.

Results

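Muscle fibres that lose contact with their motor nerve return part of the way to an immature programme, and 9 genes of that programme were followed here in mouse gastrocnemius, a mostly fast-fibred muscle of the calf. The genes were Chrna1, Chrnd, Chrng, Myh3, Myh8, Hdac4, Gadd45a, Runx1 and Ncam1, chosen by symbol among 19938 genes that had a probe set with a single gene symbol. All 9 had such a probe set, Hdac4 had 2, and no probe set named several genes including one of the 9. The male C57BL/6 mice were 12 months old, with 1 mouse per array on 15 Affymetrix arrays. The 4 groups were wildtype mice on the control diet (n = 3), wildtype mice on calorie restriction (CR, n = 4), Sirt3 knockout mice on the control diet (n = 4) and Sirt3 knockout mice on CR (n = 4). Sirt3 encodes a mitochondrial NAD-dependent deacetylase. The sources used here do not give the way the knockout allele was made, or the degree and length of CR. The comparisons ask whether diet, genotype or the combination moved these genes in mice for which no denervation is stated.

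In an innervated fibre the acetylcholine receptor is kept to the synapse, and electrical activity silences receptor genes along the rest of the fibre. When activity stops, the deacetylase HDAC4 accumulates, myogenin rises, and receptor subunit genes are switched on again through E-boxes, the short motifs bound by myogenic factors. Embryonic and neonatal myosin heavy chains, Myh3 and Myh8, mark fibres that are forming or regenerating. These members therefore cover a regulator (Hdac4), an atrophy effector (Gadd45a), a transcription factor that protects denervated fibres (Runx1), a surface adhesion molecule (Ncam1), the receptor subunits and the immature myosins.

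None of the 9 genes passed the test in any of 7 comparisons, under limma with Benjamini-Hochberg adjustment over 12056 genes and a threshold of 0.05. Of the 9, 8 lay above the limit for dim genes, a mean of 5.32 on the log2 scale, and were tested there. Myh3 lay below it and was read from the fit of all 19938 genes. The smallest adjusted p over the members was 0.118, for Runx1 with CR averaged over genotypes. In the 4 comparisons of a pair of groups all 36 of the 95% intervals lay within 1 log2 unit of no difference, and 26 lay within 0.5. The intervals are not adjusted for their number. The widest bounds were -0.94 for Runx1 and 0.82 for Gadd45a.

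Sirt3 itself was lower in knockout muscle, by -0.96 (SE 0.18) on the log2 scale averaged over diets, with wildtype arrays at 6.38 to 6.68 and knockout arrays at 4.94 to 6.19 (limma adjusted p = 0.318). Array medians differed little, from 5.40 to 5.48. All 9 listed markers of skeletal muscle, such as Acta1 and Ckm, lay above the dim limit, and their mean stayed within 0.136 log2 units of the median array on every array. Of these 9 only Pvalb passed in any comparison, with CR averaged over genotypes (0.15, limma adjusted p = 0.0484, and 0.0747 without the 2 germ cell arrays named next). Some arrays also carried transcripts foreign to muscle. The mean of 10 male germ cell genes exceeded that of the median array by 4.65 log2 units on wildtype control replicate 3 and by 4.05 on knockout control replicate 1. On wildtype control replicate 2 a list of 7 pancreatic acinar genes stood 7.16 above, and on wildtype CR replicate 4 a list of 9 liver genes stood 2.72 above. The liver list also stood 1.64 above on knockout control replicate 2 and 1.54 above on wildtype control replicate 1. On knockout CR replicate 1 and knockout control replicate 1 it stood 0.81 and 0.80 above. The acinar list also stood 0.82 above on wildtype control replicate 3 and 0.61 above on wildtype control replicate 1. The germ cell list also stood 0.94 above on both wildtype CR replicate 3 and knockout control replicate 2. It stood 0.70 above on wildtype control replicate 2 and 0.59 above on knockout CR replicate 3. Values are also given without the 2 germ cell arrays or without the first 4 of these arrays. The latter leaves 1 wildtype control array, replicate 1, whose spread is assumed to be that of the other groups. This array itself carries some liver and acinar transcripts. Other arrays kept in both fits also carry some germ cell or liver transcripts, as given above. In whole muscle, fewer cells of a type and less RNA per cell cannot be told apart.

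RefSeq promoter windows (assembly GRCm38.p6, 250 bases before to 50 after the start) were searched for E-boxes, and matched 7 of the 9 members, all but Chrnd and Ncam1. The E-box was searched as CANNTG, which reads alike on both strands and occurs in 72.3% of all windows. The stretches before the start of Chrna1 (chr2:73580339-73580448, minus strand) and Chrng (chr1:87205641-87205810, plus strand) are printed, with E-boxes in capitals, because these are the 2 subunits whose knockout CR arrays all lay above the knockout control arrays.
Chrna1: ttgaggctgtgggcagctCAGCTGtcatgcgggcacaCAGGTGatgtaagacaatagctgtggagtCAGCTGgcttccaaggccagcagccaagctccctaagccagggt
Chrng: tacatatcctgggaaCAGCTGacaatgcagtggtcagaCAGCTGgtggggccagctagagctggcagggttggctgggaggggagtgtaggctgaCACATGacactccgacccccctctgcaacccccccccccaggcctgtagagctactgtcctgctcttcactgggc
Each stretch holds 3 E-boxes, 2 of them spelled CAGCTG. The full 300-base windows of both genes hold the same numbers. Of 32851 promoter windows of 300 bases, 17.6% hold 3 or more E-boxes and 1.90% hold 2 or more copies of CAGCTG. The first Runx1 window also holds 3 E-boxes, none of them CAGCTG. Myh8 has 2, Myh3 and Gadd45a have 1 each, and Hdac4 and the second Runx1 window have 0. The N-box CCGGAA, a motif of genes transcribed at the synapse, was searched on both strands and found in neither receptor window. It occurs in 14.9% of all windows, including those of Gadd45a and the second of Runx1. A match of letters is a description and does not show that a factor binds there.

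Chrna1 encodes the alpha subunit, which binds acetylcholine and is part of both the fetal and the adult receptor. Its log2 intensity was 7.40, 7.35 and 6.95 on the wildtype control arrays and 7.41, 7.41, 7.32 and 7.45 on wildtype CR. It was 7.03, 7.39, 7.35 and 7.46 on knockout control and 7.52, 7.61, 7.46 and 7.72 on knockout CR. All 4 knockout CR arrays lay above every other array, the closest being 7.46 on knockout CR against 7.46 on knockout control. The low values of the control groups came from the 2 arrays with germ cell transcripts. CR in knockout mice gave a log2 difference of 0.27 (SE 0.11, unadjusted p = 0.024, limma adjusted p = 0.339), and without the 2 germ cell arrays the difference was 0.18 (limma adjusted p = 0.309). CR in wildtype mice gave 0.16 (SE 0.12, limma adjusted p = 0.537), which was 0.023 without those arrays and -0.021 without the 4.

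**Figure D1:**
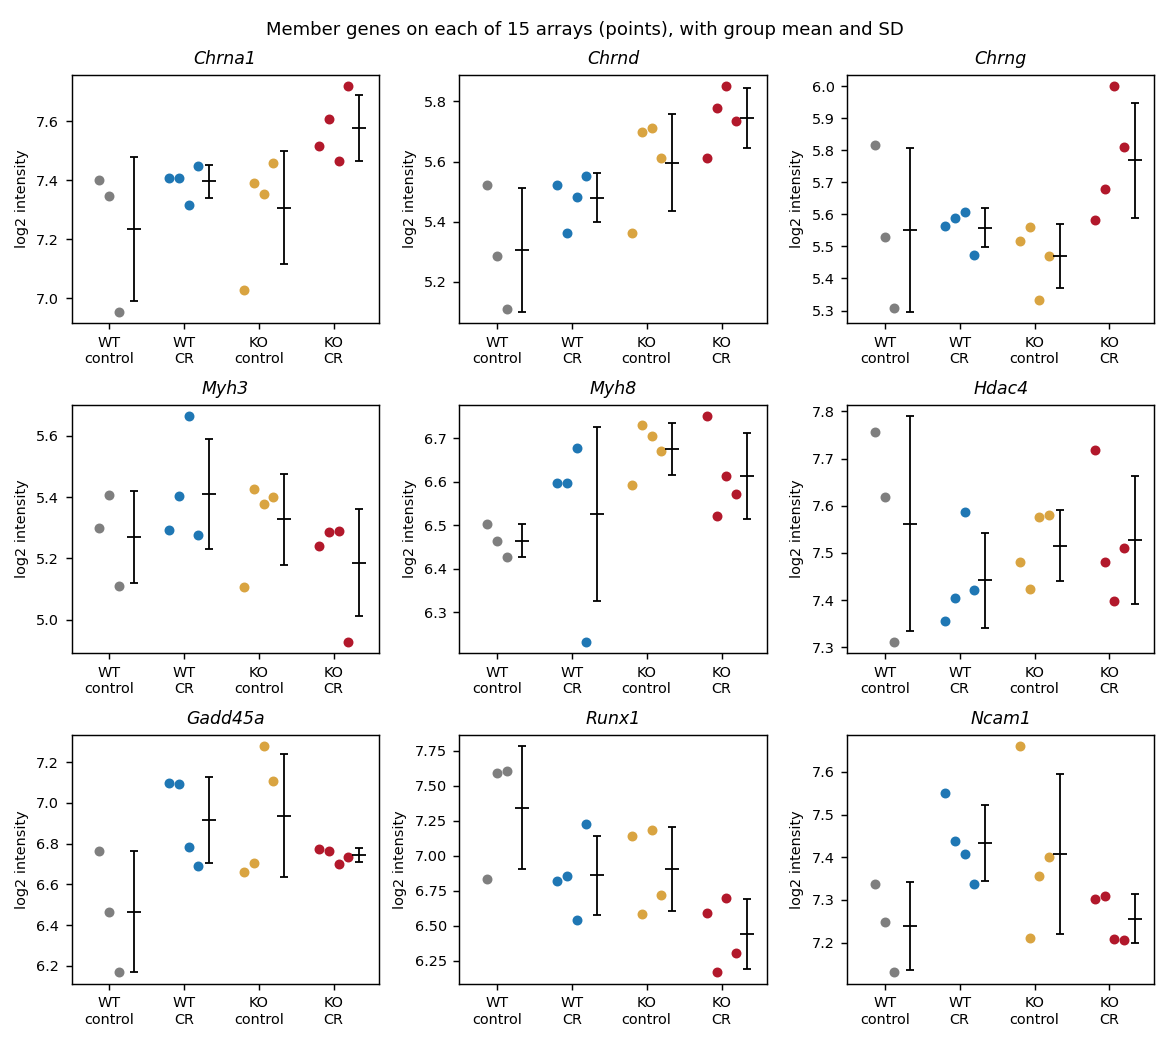
Log2 intensity of the 9 genes on each of the 15 arrays (points), by genotype (WT, wildtype; KO, Sirt3 knockout) and diet, with the group mean and SD beside the points (n = 3 for WT control, 4 for each other group). Vertical axes differ between genes and do not start at 0. For Chrna1 the 4 KO CR arrays lie at 7.46 to 7.72, and for Runx1 they lie at 6.17 to 6.70.

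Chrng encodes the fetal gamma subunit, which the epsilon subunit replaces after birth and which returns on denervation. It was dim, with values of 5.82, 5.53 and 5.31 on wildtype control, 5.56, 5.59, 5.61 and 5.47 on wildtype CR, 5.52, 5.56, 5.33 and 5.47 on knockout control, and 5.58, 5.68, 6.00 and 5.81 on knockout CR. The knockout CR arrays lay above the knockout control arrays without overlap but overlapped wildtype control. The difference with CR was 0.30 (SE 0.11, unadjusted p = 0.014, limma adjusted p = 0.293) in knockout mice and 0.0076 (SE 0.11, limma adjusted p = 0.982) in wildtype mice. The latter was -0.11 without the 2 germ cell arrays and -0.23 with all 4 left out. The difference between these responses was 0.29 (SE 0.16, limma adjusted p = 0.863). Without the 2 germ cell arrays it was 0.43 (unadjusted p = 0.015, limma adjusted p = 0.624).

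Chrnd encodes the delta subunit, common to the fetal and the adult receptor, and lies next to Chrng on chromosome 1. Its values were 5.52, 5.29 and 5.11 on wildtype control, 5.52, 5.36, 5.48 and 5.55 on wildtype CR, 5.36, 5.70, 5.71 and 5.61 on knockout control, and 5.61, 5.78, 5.85 and 5.73 on knockout CR. The knockout mice were higher on both diets, without overlap on CR and with overlap on the control diet. Averaged over diets the knockout difference was 0.28 (SE 0.07, 95% interval 0.12 to 0.43, unadjusted p = 0.0016), a ratio of 1.21, with a limma adjusted p of 0.507. It was 0.29 on the control diet, and 0.15 there without the 4 arrays, and 0.26 on CR. Of the members, Chrnd had the smallest p for genotype, and in each of 15 fits that left out 1 array the averaged difference stayed between 0.23 and 0.33. It was 0.27 without both germ cell arrays (limma adjusted p = 0.205) and 0.22 without the 4 (limma adjusted p = 0.806). Its wildtype control mean, 5.31, lies at the dim limit.

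Myh8, the neonatal myosin heavy chain, ranged from 6.23 to 6.75 and was steady in each group but wildtype CR. It was 6.46 ± 0.04 (SD, n = 3) on wildtype control and 6.67 ± 0.06 (SD, n = 4) on knockout control, and these groups did not overlap. That difference of 0.21 (SE 0.09) had an unadjusted p of 0.041 and a limma adjusted p of 0.674, and was 0.22 without the 2 germ cell arrays. CR averaged over genotypes gave 0.00043 (95% interval -0.14 to 0.14, limma adjusted p = 0.997), and -0.023 without those arrays. Myh3, the embryonic myosin heavy chain, had a probe set mean below the dim limit and ranged from 4.93 to 5.66 over the arrays, with overlap between every pair of groups. Its largest pairwise difference was -0.22 (SE 0.11, limma adjusted p = 0.914 in the fit of all genes), knockout against wildtype on CR, which was -0.27 without the 4 arrays. Both genes sit in a cluster on chromosome 11 with the adult Myh2, Myh1 and Myh4, whose coding sequences are similar, so signal from the abundant adult transcripts in their probe sets was not tested. Of the 7 adult and cardiac heavy chain genes listed, 6 were tested and 0 passed in any comparison.

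Hdac4, the deacetylase that links lost activity to the receptor genes, varied least by group with all arrays kept. Its group means ran from 7.44 on wildtype CR to 7.56 on wildtype control, a spread of 0.12 against an SD of 0.23 in wildtype control. No neighbouring groups in that order were apart. CR in wildtype mice gave -0.12 (SE 0.10, limma adjusted p = 0.609). The lowest wildtype control value, 7.31, is a germ cell array. Without the 2 germ cell arrays the difference was -0.25 (unadjusted p = 0.024, limma adjusted p = 0.395), and without the 4 it was -0.31. Its second probe set disagreed in knockout mice, where CR gave -0.19 (unadjusted p = 0.137) against 0.012 (SE 0.10) in the brighter one. In the averages of both probe sets knockout control and knockout CR changed places in the order.

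Gadd45a, a growth arrest gene induced in denervated fibres and sufficient to cause fibre atrophy, was lowest in wildtype control mice. Its values were 6.77, 6.46 and 6.17 on wildtype control and 7.10, 7.09, 6.78 and 6.69 on wildtype CR. Knockout control arrays read 6.66, 6.71, 7.28 and 7.11, while knockout CR arrays lay within a narrow band at 6.78, 6.77, 6.70 and 6.74. Groups overlapped in all 4 pairwise comparisons. CR gave 0.45 (SE 0.16, unadjusted p = 0.015, limma adjusted p = 0.260) in wildtype mice. In knockout mice it gave -0.19 (SE 0.15, limma adjusted p = 0.623). The knockout difference on the control diet was 0.47 (SE 0.16, limma adjusted p = 0.612). It is measured against the same 3 wildtype control arrays as the wildtype CR difference, the lowest of which, 6.17, is a germ cell array. Without the 2 germ cell arrays these values were 0.30 and 0.42, and without the 4 they were 0.22 and 0.26. The CR responses of the genotypes differed by -0.64 (SE 0.22, unadjusted p = 0.012, limma adjusted p = 0.828), and by -0.59 without the 2 arrays (limma adjusted p = 0.624).

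**Figure D2:**
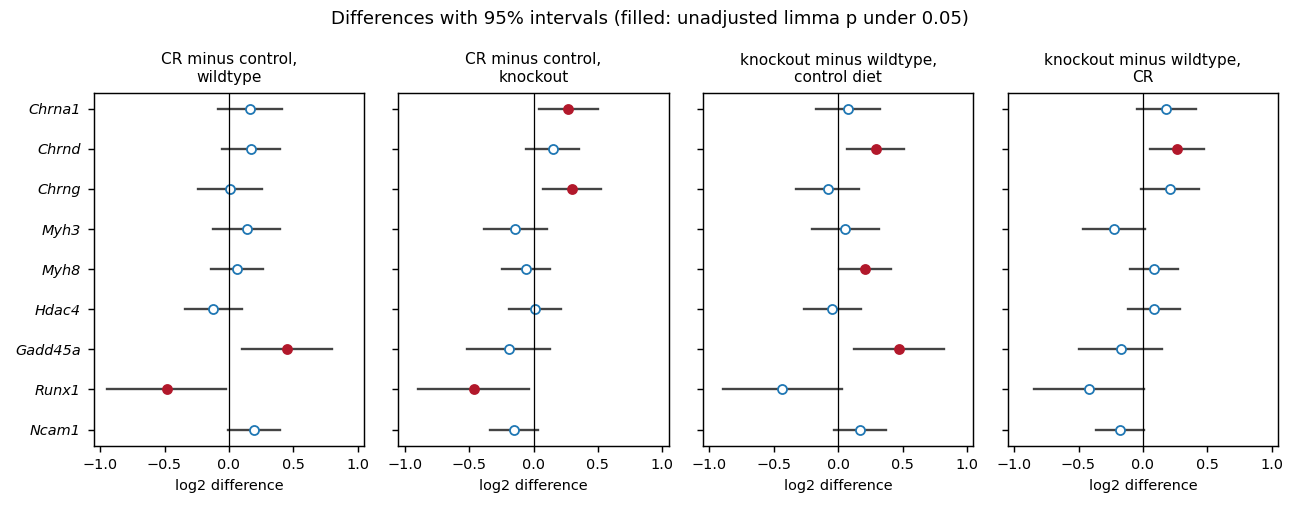
Log2 differences of the 9 genes with 95% limma intervals in the 4 comparisons of a pair of groups. Filled points have an unadjusted p under 0.05, and none passed after adjustment (smallest adjusted p 0.260). All 36 intervals lie within 1 log2 unit of 0.

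Runx1, a transcription factor strongly induced in denervated muscle, where it limits wasting, also serves in blood cells. Its values were 6.84, 7.59 and 7.60 on wildtype control, 6.82, 6.86, 6.54 and 7.22 on wildtype CR, 7.14, 6.59, 7.19 and 6.72 on knockout control, and 6.59, 6.17, 6.70 and 6.30 on knockout CR. It was the most variable member, with a range of 1.44, and its group means fell in the order wildtype control, knockout control, wildtype CR, knockout CR, although neighbouring groups overlapped. In wildtype mice CR gave -0.48 (SE 0.22, limma adjusted p = 0.356), which was -0.35 without the 2 germ cell arrays and -0.096 with all 4 left out. The knockout mice gave -0.47 (SE 0.20, limma adjusted p = 0.377). Averaged over genotypes it was -0.47 (SE 0.15, 95% interval -0.79 to -0.16, unadjusted p = 0.0061, limma adjusted p = 0.118), a ratio of 0.72. Knockout mice averaged over diets were at -0.43 (SE 0.15, unadjusted p = 0.012, limma adjusted p = 0.645) against wildtype, and at -0.15 without the 4 arrays. Without wildtype control replicate 1, the array low in Runx1 in that group, the averaged CR difference was -0.60 and passed (limma adjusted p = 0.0367). Over the 15 fits that left out 1 array it ran from -0.60 to -0.41. It was -0.37 without both germ cell arrays (limma adjusted p = 0.283) and -0.24 without the 4 (limma adjusted p = 0.605).

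Leukocyte markers were read beside Runx1 because blood cells express it. Of 14 listed, 13 had a probe set and 6 lay above the dim limit, of which 0 passed in any comparison. The mean of the 13 ran from -0.069 to 0.214 relative to the median array in wildtype control, -0.062 to 0.072 in wildtype CR, 0.027 to 0.077 in knockout control and -0.064 to 0.039 in knockout CR. The pan-leukocyte gene Ptprc lay below the dim limit, at 4.86 to 5.35. With CR averaged over genotypes the median of the 6 was -0.17, against 0.029 over all genes. At an unadjusted limma p under 0.05, 2 of the 6 were lower and 0 higher. Of all 12056 genes, 772 were lower and 1656 higher at that level. Lyz2, a lysozyme of macrophages and neutrophils, gave -0.28 (SE 0.08, unadjusted p = 0.0035, limma adjusted p = 0.0966), and Tyrobp, a myeloid signalling adaptor, gave -0.22 (SE 0.09, limma adjusted p = 0.190). Some listed markers did not fall. Cd14, below the dim limit, went from 4.77 to 4.91 with CR in wildtype mice and from 4.66 to 4.80 in knockout mice (group means). Cd163, also below it, went from 4.91 to 5.01 and from 4.93 to 5.18. Cd68 went from 6.56 to 6.87 in wildtype mice and from 6.78 to 6.04 in knockout mice. Runx1 gave -0.47 with CR averaged over genotypes. For knockout against wildtype averaged over diets the median of the 6 was -0.0026. By array, the highest leukocyte mean was on wildtype control replicate 1, where Runx1 was lowest in its group. The part of leukocytes in the Runx1 values was not tested.

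Ncam1, a neural adhesion molecule that spreads over the fibre surface after denervation and is also made by satellite and Schwann cells, ranged from 7.13 to 7.66. It was 7.34, 7.25 and 7.13 on wildtype control, 7.55, 7.44, 7.41 and 7.34 on wildtype CR, 7.66, 7.21, 7.36 and 7.40 on knockout control, and 7.30, 7.31, 7.21 and 7.21 on knockout CR. On CR the knockout arrays lay below the wildtype arrays without overlap, by -0.18 (SE 0.09, limma adjusted p = 0.845). The CR response was 0.19 (SE 0.09) in wildtype and -0.15 (SE 0.09) in knockout mice. The responses differed by -0.35 (SE 0.13, unadjusted p = 0.016, limma adjusted p = 0.828). The highest array, knockout control replicate 1, is a germ cell array, and without both germ cell arrays the responses were 0.14 and -0.066 and their difference was -0.21 (unadjusted p = 0.071). Of 7 satellite cell markers 5 were tested and of 15 Schwann cell and nerve markers 7 were tested. None passed in any comparison. The satellite list mean ran from -0.157 to 0.116, and the Schwann list mean from -0.271 to 0.169, relative to the median array, with Sox10 at 5.94 to 6.34.

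**Figure D3:**
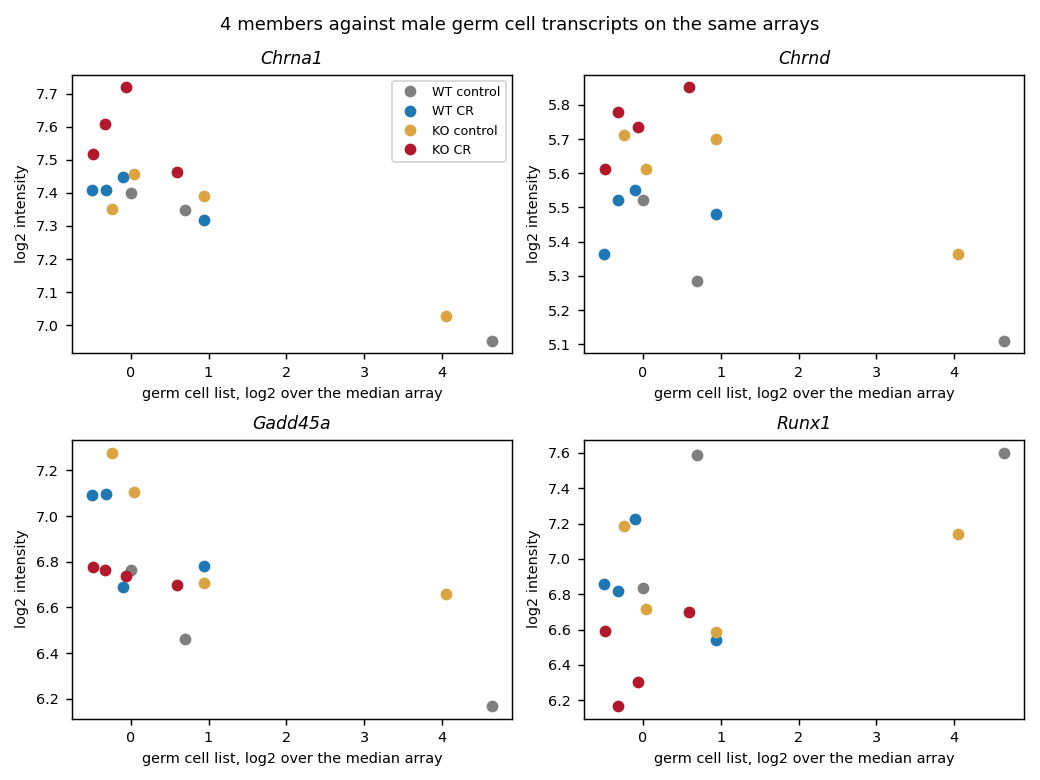
Log2 intensity of 4 members on each array (points, coloured by group) against the mean of 10 male germ cell genes on the same array, in log2 units over the median array. The 2 arrays at 4.05 and 4.65 hold the lowest Chrna1 values, 7.03 and 6.95.

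One array touched most members. Wildtype control replicate 3 was the lowest of 15 for 6 of the 9 genes (Chrna1, Chrnd, Chrng, Hdac4, Gadd45a and Ncam1) and the highest for Runx1. It was also the lowest array for 26.0% of all 12056 genes tested, more than any other array, and it carries the germ cell transcripts. Their part in these member values was not tested beyond the fits without the array.

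Set against all genes, the members' counts were as follows. With CR in wildtype mice, 2 of the 8 tested members had an unadjusted p under 0.05, where 13.1% of all genes did, and 0 passed adjustment, where 0.124% did. No member was without overlap, where 12.5% of all genes were. With CR in knockout mice, 3 of 8 had an unadjusted p under 0.05 (12% of all genes), 0 passed (0.0664%), and 2 members were without overlap (6.98%). With CR averaged over genotypes, 3 of 8 were under 0.05 (20.1% of all genes) and 0 passed (1.07%). For knockout against wildtype on the control diet, 3 of 8 were under 0.05 (7.03%), 0 passed (0% of all genes) and 1 was without overlap (5%). On CR these were 1 of 8 (5.92%), 0 (0.0166%) and 3 without overlap (4.6%). Averaged over diets 3 of 8 were under 0.05 (7.18%) and 0 passed (0%). For the difference of responses 2 of 8 were under 0.05 (5.71%) and 0 passed (0%). With so few members, these shares are counts of 1 to 3 genes and no more is read from them. The median of the 8 tested members was 0.11 with CR in wildtype mice and -0.024 with CR in knockout mice, against 0.044 and 0.0096 over all genes. For knockout against wildtype it was 0.12 on the control diet and 0.087 on CR, against 0.021 and -0.0081.

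Of 20 listed genes of the receptor and neuromuscular junction, 17 were tested and 0 passed in any of the 7 comparisons. The smallest p with CR in wildtype mice was that of Chrnb1, the beta subunit of both fetal and adult receptors. It stood at 7.46 ± 0.23 (SD, n = 3) on wildtype control and 7.97 ± 0.19 (SD, n = 4) on CR, without overlap, a difference of 0.51 (SE 0.11, unadjusted p = 0.00045, limma adjusted p = 0.114). In knockout mice it was 7.81 and 7.88, a difference of 0.071 (limma adjusted p = 0.809). The responses differed by -0.44 (SE 0.15, limma adjusted p = 0.828), and without the 2 germ cell arrays the wildtype difference was 0.42 (limma adjusted p = 0.239). Chrne, the adult epsilon subunit, had the smallest p of the list with CR in knockout mice, at 0.26 (SE 0.08, limma adjusted p = 0.259). The fetal subunit Chrng had 0.30 and the shared subunit Chrna1 0.27 in the same comparison, so the fetal and the adult subunit differed in the same direction, neither past the threshold.

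Upstream of the receptor genes, 13 of 14 genes of the HDAC4 and myogenin axis were tested and 0 passed in any comparison. Myog, which encodes myogenin, was at 5.55 ± 0.28 (SD, n = 3) on wildtype control, and at 5.94 ± 0.28, 5.97 ± 0.34 and 5.88 ± 0.26 (SD, n = 4 each) on wildtype CR, knockout control and knockout CR. The CR difference was 0.39 (SE 0.20, limma adjusted p = 0.417) for wildtype mice. For knockout mice it was -0.090 (SE 0.19, limma adjusted p = 0.869), and -0.22 without the 2 germ cell arrays. The responses differed by -0.48 (limma adjusted p = 0.863), by -0.60 without the 2 and by -0.82 without the 4, where the wildtype difference was 0.60. Among 6 tested Gadd45 partners and targets 0 passed. Gadd45g, a paralogue of Gadd45a also induced by denervation, had the smallest p of that list with CR averaged over genotypes. Its values were 7.16, 7.29 and 6.99 on wildtype control, 7.99, 8.11, 7.76 and 8.23 on wildtype CR, 6.82, 7.67, 8.85 and 8.62 on knockout control, and 8.73, 8.61, 8.78 and 9.05 on knockout CR. The averaged CR difference was 0.84 (SE 0.24, unadjusted p = 0.0032, limma adjusted p = 0.0948), and the averaged knockout difference was 0.81 (SE 0.24, unadjusted p = 0.0041, limma adjusted p = 0.536). The low knockout control value, 6.82, is the germ cell array, and without both such arrays the 2 averages were 0.61 and 0.96 (limma adjusted p of 0.116 and 0.165).

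**Figure D4:**
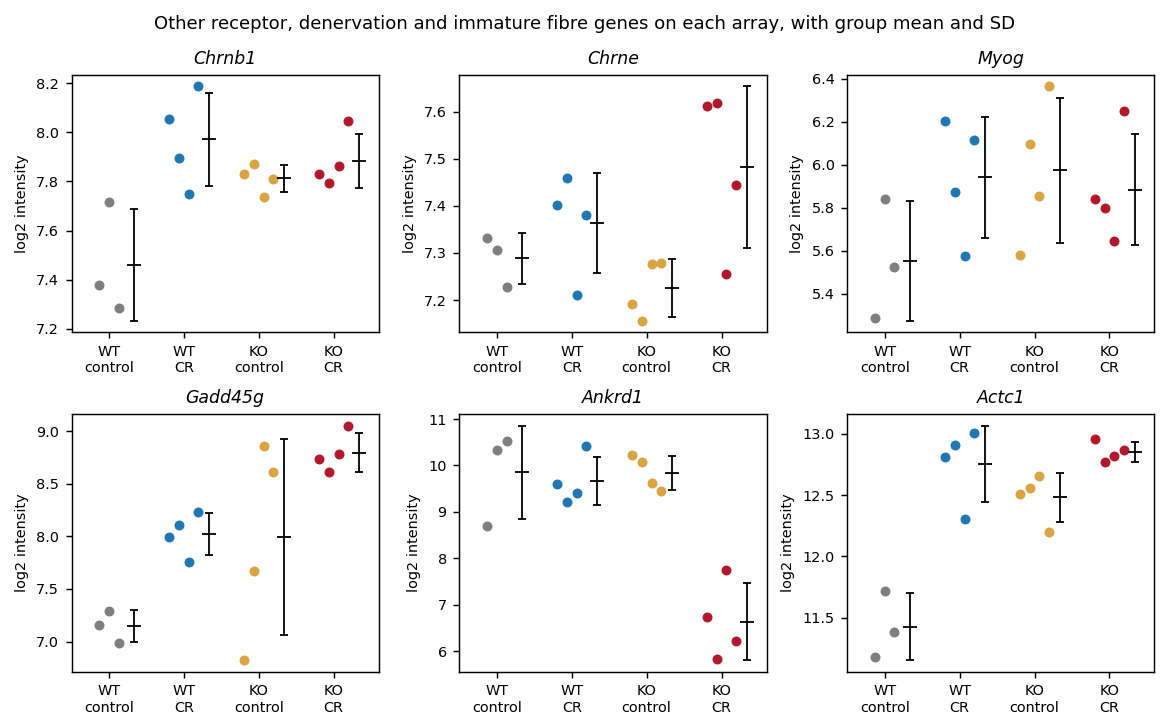
Log2 intensity of 6 genes outside the 9 on each array (points), with the group mean and SD (n = 3 for WT control, 4 for each other group; vertical axes do not start at 0). Ankrd1 lies at 5.84 to 7.75 on the KO CR arrays, and Actc1 at 11.18 to 11.72 on the WT control arrays.

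Of the other denervation responsive and immature fibre genes, 1 of each list passed. Ankrd1, a stretch-responsive sarcomere protein that also rises after denervation, was lower with CR in knockout mice, with a log2 difference of -3.21 (SE 0.44, limma adjusted p = 0.0142), and was the only 1 of 14 tested to pass there. That difference was -3.08 in both fits with arrays left out (limma adjusted p of 0.0336 and 0.0083). In wildtype mice it was -0.19 (SE 0.47), and its sign turned to 0.15 without the 2 and 0.72 without the 4. Actc1, the cardiac alpha-actin of immature and regenerating fibres, rose with CR in wildtype mice by 1.33 (SE 0.16, limma adjusted p = 0.00546), the only 1 of 16 tested, and by 1.31 without the 2 arrays (limma adjusted p = 0.0326). In knockout mice it gave 0.37 (SE 0.15, limma adjusted p = 0.342). The responses differed by -3.02 for Ankrd1 and -0.96 for Actc1, each with a limma adjusted p of 0.641. Ankrd1 also passed for knockout against wildtype on CR (-3.03, SE 0.44, limma adjusted p = 0.0406). With CR averaged over genotypes both passed, Ankrd1 at -1.70 (limma adjusted p = 0.0328) and Actc1 at 0.85 (limma adjusted p = 0.0075). The median of the immature fibre list was 0.11 with CR in wildtype mice and -0.034 with CR in knockout mice. That of the denervation list was 0.24 and -0.10, against 0.044 and 0.0096 over all genes. Both lists were assembled with these results known.

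Among the members themselves 36 pairs were correlated over the 15 arrays. The permutations did not keep arrays within their groups, so the p-values take in group differences as well. Adjustment was over these 36 pairs. Chrna1 and Chrnd varied together, with Pearson's r = 0.755 (permutation p = 0.0011, adjusted p = 0.026) and Spearman's rho = 0.754 (permutation p = 0.0019, adjusted p = 0.068). Without the 2 arrays farthest from the Chrna1 median, which are the germ cell arrays, r was 0.536. Runx1 ran against both, at r = -0.719 with Chrna1 (permutation p = 0.0022, adjusted p = 0.026) and r = -0.731 with Chrnd (permutation p = 0.0019, adjusted p = 0.026). Their rho values were -0.608 and -0.656 (adjusted permutation p of 0.144 and 0.114). With 2 arrays left out in the same way r was -0.635 and -0.670, and within groups, after the group means were removed, it was -0.475 and -0.419. No other pair passed by r, and no pair passed by rho. Hdac4 had r = 0.268 with Chrna1 (permutation p = 0.337, adjusted p = 0.713) and the myosins Myh3 and Myh8 had r = 0.283 (permutation p = 0.300, adjusted p = 0.713).

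The genes with the most similar pattern over the 15 arrays were found by Pearson's r among the 12056, as a description. For Chrna1 they were Ptpru (r = 0.933) and Marveld1 (0.925), for Chrnd Crym (0.913) and Palm (0.899), and for Chrng Olfr1174 (0.923) and Rdh8 (0.908). For Gadd45a they were Ndufs5 (0.922) and Dph7 (0.912), for Runx1 Klhl30 (0.887) and Tns3 (0.886), and for Ncam1 Uso1 (0.871) and Des (0.862). Myh8 was closest to 1700084J12Rik (0.872) and Folr2 (0.869), and Hdac4 to Xaf1 (0.813) and Adar (0.812). Such values are the top of many: 36.0% of all genes had an r beyond 0.5 in either direction with Chrna1 and 26.0% with Runx1, against 5.02% with Ncam1. Arrays share their tissue transcripts and normalization, and the Chrna1 values were 0.842 and 0.798 without the germ cell arrays.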

How the data were processed

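RNA from the gastrocnemius of 15 mice was measured on Affymetrix arrays. The deposited values are log2 intensities made with RMA, per the submitters' processing notes; the sources used here give no RMA version or scan day. The table held 35556 probe sets, of which 21789 had 1 platform symbol, 1621 had several and 12146 were unlisted. Each gene was represented by its brightest probe set. Genes under the 40th percentile of mean intensity over the listed probe sets (5.32) were removed, leaving 12056. All arrays were fitted in limma 3.58.1 (R 4.3.3) with 1 mean per group. P-values were two-sided and Benjamini-Hochberg adjusted within each comparison. Errors beside differences are standard errors. Correlations used 100000 permutations. The fit was tested on simulated data. Alternatives were other filters, probe set rules, normalizations, priors, array weights, a replicate block, only the groups compared, and leaving out arrays. The members, the gene lists and the arrays left out were chosen with earlier results of these data known. Named genes outside the 9 are Sirt3 and the 2 nearest patterns per member. Also named are list members past the threshold or with the smallest p of their list in a comparison. Ptprc, Cd14, Cd163, Acta1, Ckm and the adult myosins were named after their values were seen. Replicates are separate mice. Figures used matplotlib 3.10.9.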

Additional observations from a re-analysis of the deposited data

Results flagged for a closer look

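In groups of 4 arrays, 2 of 27 sets of member values held an array set apart from the other 3 by Dixon's test, and chance sets apart about 1 in 20. Both were Myh3, the member below the dim limit. It read 5.11 on knockout control replicate 1, against 5.38 to 5.43 on the other arrays of that group, and 4.93 on knockout CR replicate 4, against 5.24 to 5.29. The first of these arrays carries germ cell transcripts. Whether they bear on the Myh3 value was not tested.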

How the results depend on the processing

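The count of members past the threshold was 0 in each comparison under the 12 alternatives that did not leave out a single array, and 0 to 1 with CR averaged over genotypes when single arrays were left out. The 1 was Runx1 without wildtype control replicate 1 (-0.60, limma adjusted p = 0.0367), and its adjusted p otherwise ran from 0.0956 to 0.605. Of 679 other values, 31 changed sign, none past the threshold.
CR in wildtype mice gave -0.0019 for Chrng after quantile normalization, -0.0011 with arrays centred on their median, -0.057 with array weights, -0.11 without both germ cell arrays and -0.23 with all 4 such arrays left out, where Chrna1 gave -0.021 and Chrnd -0.067. CR in knockout mice gave -0.091 for Hdac4 as the mean of probe sets, -0.19 from its other probe set and -0.021 after centring. The difference of responses was -0.0078 for Runx1 after centring, -0.037 without the 2 and -0.29 without the 4, 0.14 for Chrnd without the 4 and -0.040 for Hdac4 from the other probe set. CR averaged over genotypes gave -0.020 for Myh8 after centring, -0.0097 with weights and -0.023 without the 2, and -0.031 for Gadd45a without the 4. On the control diet the knockout difference was -0.015 for Ncam1 without the 4. On CR it was -0.0099 for Myh8 without the 4 and -0.057 for Hdac4 from the other probe set. Averaged over diets it was -0.0087 for Hdac4 as the mean of probe sets, -0.037 from the other probe set, -0.024 with weights, -0.037 without the 2 and -0.075 without the 4. For Chrng it was -0.0044 without the 2 and -0.091 without the 4, and for Ncam1 0.018 after quantile normalization. The causes of these changes were not tested.
When single arrays were left out, CR in wildtype mice ran from -0.11 to 0.14 for Chrng, and CR in knockout mice from -0.052 to 0.054 for Hdac4. The difference of responses ran from -0.13 to 0.073 for Chrnd and from -0.11 to 0.27 for Runx1. CR averaged over genotypes ran from -0.025 to 0.050 for Myh8 and from -0.011 to 0.064 for Ncam1. Myh3 lay above the dim limit in only 3 of these fits, and its ranges cover those alone. They left out wildtype control replicate 3, knockout control replicate 1 or knockout CR replicate 4. Over these 3 fits CR averaged over genotypes ran from -0.042 to 0.042 for Myh3. The knockout difference on the control diet ran from -0.067 to 0.17 for Chrna1, -0.20 to 0.052 for Chrng and -0.17 to 0.051 for Hdac4. For Myh3 it ran from -0.025 to 0.13 over its 3 fits. On CR it ran from -0.0099 to 0.14 for Myh8. Averaged over diets it ran from -0.043 to 0.068 for Hdac4 and from -0.047 to 0.028 for Ncam1.
With the replicate block 0 members passed, 36 genes were called with CR averaged over genotypes against 129 without it, and Ncam1 averaged over diets gave 0.0041. Of 21 pairs of arrays with the same number, 7 had a correlation of deviations over 0.1, and 2 of 15 arrays correlated best with their own number, so the numbers were not taken to pair the mice. The number of arrays limits the precision, and Myh3, Chrng and Chrnd lie near the dim limit.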
